A study of Mus musculus with 6 samples.

Results

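The ISG15 conjugation system was taken as 6 genes, Isg15, Uba7, Ube2l6, Herc6, Trim25 and Usp18, and every probe set annotated with 1 of these symbols was followed, 6 probe sets out of 35556 in the table. Uba7, Ube2l6, Herc6, Trim25 and Usp18 each had 1 probe set of their own. Isg15 had none: its only probe set was annotated to Isg15 and to the pseudogene Gm9706, which the RefSeq gene table places on chromosome 17, whereas Isg15 itself is on chromosome 4. That signal is called the Isg15/Gm9706 probe set below, and it cannot be assigned to either gene. The genes were chosen by role, but with the differences between H19 siRNA and control siRNA already known, Usp18's being among the largest. Their differences are therefore a description, without a test.

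ISG15 is a small ubiquitin-like protein whose gene is among the most strongly induced by type I interferon. It is joined to other proteins by a cascade in which Uba7 activates it (the E1 step), Ube2l6 carries it (E2), and a ligase such as Herc6, the main ISG15 ligase of mouse cells, or Trim25 transfers it (E3). Usp18 is the protease that takes ISG15 off again, and it also binds the interferon receptor chain Ifnar2 and damps signalling there. All 6 genes are known as interferon-inducible.

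The cells were C2C12, an established mouse myoblast line that fuses into myotubes when serum is lowered. At about 90% density they went from medium with 10% fetal bovine serum into medium with 2% horse serum. On day 1 of differentiation they received either a control siRNA (siCon, 3 arrays) or an siRNA against mouse H19 (simH19, 3 arrays), and total RNA was collected 40 h later. The cells of both groups were otherwise wild type, 1 siRNA against H19 was listed, and there was no untransfected group, so the response to transfection itself is part of both groups. Whether the triplicates came from separate cultures is not stated, so each p-value reflects spread among these arrays that may be only technical.

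Each value is a log2 expression value made with RMA, where a difference of 1 is a doubling, and array medians lay between 6.73 and 6.78. The probe set listed under Mir675, which lies inside H19, and under Supt6 fell by 1.89 on the log2 scale (SE 0.04, n = 3 each; limma adjusted p = 1.80e-05). Of all 21559 units tested (genes, or probe sets with several symbols) 43 passed the limma test at an adjusted p under 0.05. With an intensity trend and robust variance together 435 passed, and 10.9% had an unadjusted p under 0.05. Of 10 muscle markers, which include Myod1, Des and Chrna1, 0 passed in limma. With trend and robust variance together 5 passed (Myod1, Myog, Myf5, Acta1 and Cdh15), and 5 had an unadjusted p under 0.05. Myod1, Myog and Cdh15 also passed without dim units under the 30th percentile (111 of 15091 units passed) or the median (266 of 10779). Cdh15 also passed with array weights (70 units passed) and after a second quantile normalization (60). In the remaining settings 0 passed. Of the 10 markers 9 were higher, against 58.0% of all units. The mean log2 value of the muscle markers was 11.27 to 11.28 on control arrays and 11.38 to 11.43 on H19 siRNA arrays. Of 8 measured leukocyte markers 0 passed in limma (0 with trend and robust variance, 1 at an unadjusted p under 0.05), and their mean was 6.17 to 6.19 and 6.13 to 6.18. Ptprc, the pan-leukocyte surface marker, averaged 5.19 and 5.17, near the 20th percentile of all signals (19.6), whereas Cd68, a macrophage marker, averaged 8.05 and 7.86 (limma adjusted p = 0.278) and Cd14 8.33 and 8.19, above the median signal. Of 5 fibroblast markers 1, Dcn, fell in limma (2, Dcn and Pdgfra, with trend and robust variance, and 3 at an unadjusted p under 0.05). Without any 1 array other than H19 siRNA replicate 2, 0 passed. Their mean was 10.01 to 10.07 on control arrays and 9.86 to 9.91 on H19 siRNA arrays. The part of these shifts in the results below was not tested. In bulk RNA, a change in the number of cells of a type and a change in RNA per cell cannot be told apart.

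The start regions of 5 members were held in the RefSeq promoter table (GRCm38.p6), and Usp18 was not among them. They were searched on both strands for GAAA, any 2 bases and GAAA again, the core of the interferon-stimulated response element that interferon-activated factors bind. Isg15 was the only one of the 5 windows of 300 bases that held it, and 3.44% of all 32851 windows did. Isg15 is shown because it carries the motif. Herc6 and Uba7 are shown for contrast, as the members with a promoter entry and a probe set of their own whose measured differences were widest and narrowest. Each run is the 250 bases before the start, read along the gene's strand, with matches to the motif in capitals.

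Isg15 (chr4:156200819-156201068, minus strand): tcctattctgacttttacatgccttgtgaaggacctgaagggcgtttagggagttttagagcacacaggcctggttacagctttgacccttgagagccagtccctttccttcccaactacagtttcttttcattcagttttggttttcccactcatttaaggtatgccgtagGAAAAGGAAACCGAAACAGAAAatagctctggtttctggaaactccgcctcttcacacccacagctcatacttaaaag
Herc6 (chr6:57580742-57580991, plus strand): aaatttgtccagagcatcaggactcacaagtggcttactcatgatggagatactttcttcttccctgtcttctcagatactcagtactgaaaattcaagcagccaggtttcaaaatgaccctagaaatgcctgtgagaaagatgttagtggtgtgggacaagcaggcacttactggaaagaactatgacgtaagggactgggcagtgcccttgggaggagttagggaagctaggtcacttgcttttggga
Uba7 (chr9:107975317-107975566, plus strand): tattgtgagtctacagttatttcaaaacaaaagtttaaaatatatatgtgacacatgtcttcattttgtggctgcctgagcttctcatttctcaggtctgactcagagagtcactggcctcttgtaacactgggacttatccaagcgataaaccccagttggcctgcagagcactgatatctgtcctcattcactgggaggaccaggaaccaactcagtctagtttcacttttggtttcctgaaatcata

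In Isg15 the motif occurred as 3 overlapping copies on the gene's strand, whose first bases lie at -78, -72 and -66 from the start. A stricter form, with C right after the first GAAA, matched 2 of these, at -72 and -66, and was found in 0.685% of all windows. A window without the letters shows only that they are absent from these bases.

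The members were not all higher by the same amount. The protease Usp18 was 1.81-fold higher with H19 siRNA, the Isg15/Gm9706 probe set 1.19-fold, the ligase Herc6 1.13-fold and the E2 enzyme Ube2l6 1.10-fold. Trim25 was at 1.04-fold and the E1 enzyme Uba7 at 0.994-fold. The H19 siRNA arrays all lay above the control arrays for 4 of the 6 members, and for 10.5% of all 21559 units tested, a unit being 1 gene or 1 probe set with several symbols. Of the 6, 1 (Usp18) was past an adjusted p of 0.05 in the higher direction in the limma fit over all units, as were 0.125% of units. Usp18 was chosen with this difference known, so its place past the threshold is a description and no support. The median difference of the members was 0.16 on the log2 scale against 0.01 for all units, and 5 of 6 differences were positive against 58.0% of units.

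**Figure D1:**
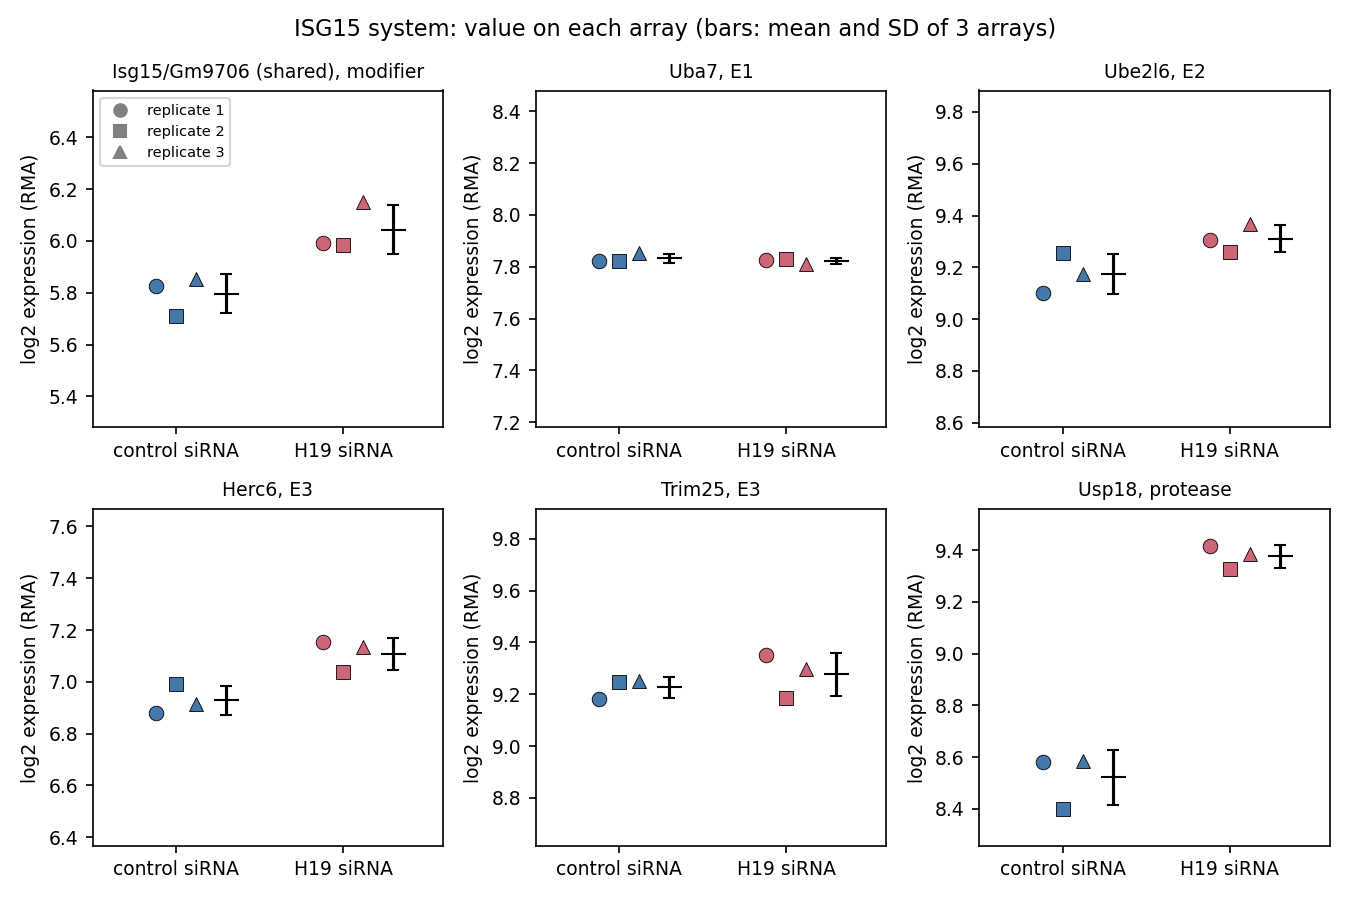
Log2 expression (vertical axis, each panel spanning the same log2 distance) on each of 3 control siRNA arrays (blue) and 3 H19 siRNA arrays (red), with marker shape giving the replicate number and black bars the mean and SD. The groups lie far apart for Usp18, narrowly apart for Isg15/Gm9706, Ube2l6 and Herc6, and overlap for Uba7 and Trim25.

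The only signal annotated to the modifier, shared with Gm9706, was dim. The Isg15/Gm9706 probe set read 5.83, 5.71 and 5.85 with control siRNA, and the H19 siRNA arrays gave 5.99, 5.99 and 6.15. All 3 H19 siRNA values were above all control values, with the third the highest, and the gap between the groups was 0.13. The difference was 0.25 on the log2 scale (SE 0.06; 95% interval 0.10 to 0.39). The mean signal lay at the 31st percentile of all units (31.2), and RMA can compress differences in dim signals. Whether it did so here was not tested. The probe set is shared with Gm9706, so the size of the difference in Isg15 transcript was not measured here.

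Uba7, the E1 enzyme that starts the cascade, stayed at nearly 1 level on all 6 arrays. It read 7.82, 7.82 and 7.85 with control siRNA and 7.83, 7.83 and 7.81 with H19 siRNA. The groups overlapped. The difference was -0.01 (SE 0.03), and its 95% interval, -0.08 to 0.07, corresponds to 0.943-fold to 1.05-fold. Its SD within groups, 0.014, was smaller than that of all but 2.16% of units. The sign of so small a difference turned between settings, from -0.03 after centring arrays on their medians to 0.0003 in the other direction.

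Ube2l6, the E2 enzyme that receives ISG15 from Uba7, read 9.10, 9.25 and 9.17 with control siRNA and 9.30, 9.26 and 9.37 with H19 siRNA. The groups did not overlap, but the second control array and the second H19 siRNA array were only 0.0067 apart. The difference was 0.13 (SE 0.05; 95% interval 0.01 to 0.26).

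The 2 ligases differed in whether their groups overlapped. Herc6 read 6.88, 6.99 and 6.91 with control siRNA and 7.15, 7.04 and 7.13 with H19 siRNA. Its groups were apart by 0.05, with a difference of 0.18 (SE 0.05; 95% interval 0.07 to 0.29). Trim25, which is also a ubiquitin ligase that activates the RNA sensor RIG-I, read 9.18, 9.25 and 9.25 with control siRNA. With H19 siRNA it read 9.35, 9.19 and 9.30. The second H19 siRNA array lay among the controls, and the difference was 0.05 (SE 0.05; 95% interval -0.07 to 0.17). It was 0.01 without H19 siRNA replicate 1, 0.03 without control siRNA replicate 1 and 0.10 without H19 siRNA replicate 2.

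Usp18, which reverses the modification, read 8.58, 8.40 and 8.58 with control siRNA and 9.42, 9.33 and 9.38 with H19 siRNA. The lowest H19 siRNA array was 0.74 above the highest control array. The difference was 0.85 (SE 0.06; 95% interval 0.71 to 0.99), and 1 of the 21559 units, Heyl, had a larger increase. Leaving out 1 array at a time kept the difference between 0.79 and 0.88. Usp18 then missed the fit's threshold without control siRNA replicate 1 (0.88) or 3 (0.88), and without H19 siRNA replicate 1 (0.83) or 3 (0.85). It stayed past the threshold without control siRNA replicate 2 (0.79) or H19 siRNA replicate 2 (0.88), in fits with as few arrays. The cause of the misses was not tested.

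**Figure D2:**
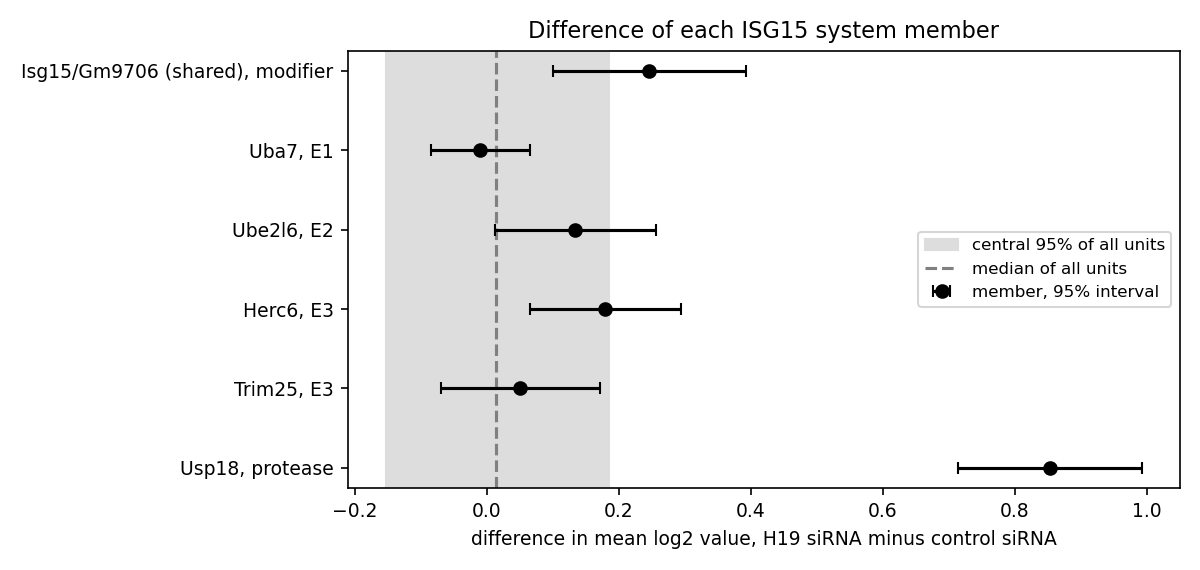
Difference in mean log2 value, H19 siRNA minus control siRNA, of each member (point) with its 95% interval (bar), beside the median (dashed line, 0.01) and the central 95% (grey, -0.15 to 0.19) of all units. Usp18 at 0.85 and Isg15/Gm9706 at 0.25 lie beyond the grey range, and the points of the other 4 members lie within it.

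Within a group the members did not all move together from array to array. On the second H19 siRNA array, 5 of 6 members were below the mean of their group, Trim25 by the widest margin (-0.09), and Uba7 alone was above it (0.01). This array also stood slightly apart over all rows, with a mean Pearson's r of 0.9962 to the other arrays. On the second control array Usp18 (-0.12) and Isg15/Gm9706 (-0.09) were low, while Ube2l6 (0.08) and Herc6 (0.06) were high. On the third H19 siRNA array 5 of 6 were above their group mean, led by Isg15/Gm9706 (0.11). For Usp18 the deviations within groups stayed at or under 0.12 on the log2 scale, against a difference between groups of 0.85. For Ube2l6 they reached 0.08 against a difference of 0.13.

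**Figure D3:**
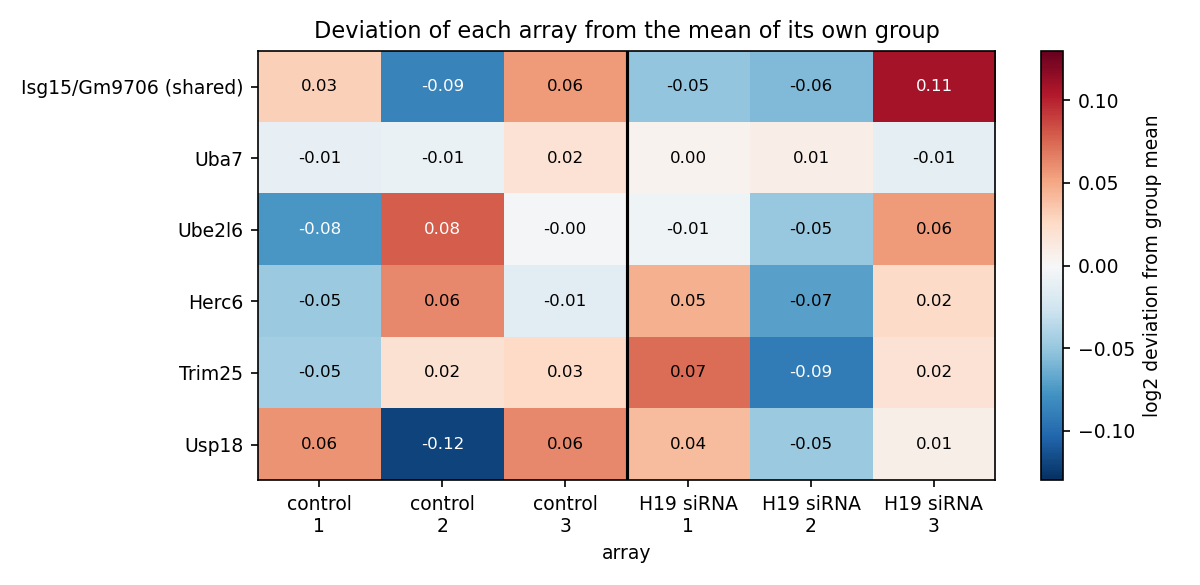
Deviation of each array (columns, replicates 1 to 3 of each group) from the mean of its own group, in log2 units, for each member (rows), with red above and blue below the mean. The second H19 siRNA column is below the mean for 5 of 6 members, and the second control column is low for Usp18 and Isg15/Gm9706 but high for Ube2l6 and Herc6.

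Relatives of the members from the same enzyme families were measured beside them, and 0 of these relatives passed the limma test in either direction. Their unadjusted p was under 0.05 for 0 of 14 ubiquitin-like modifiers, 0 of 6 E1 enzymes, 2 of 35 E2 enzymes, 1 of 4 HERC ligases, 10 of 58 TRIM ligases and 5 of 49 USP proteases. Over all units that share was 10.9%. The family medians lay between -0.04 and 0.04. With intensity trend and robust variance together in the limma fit 2 relatives passed, Trim12c and Trim55, a TRIM protein of the sarcomere. In that fit 435 of all 21559 units passed. Whether a member differed from its relatives was not tested.

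Among USP proteases the 49 relatives of Usp18 ranged from -0.18 to 0.17. Usp36, a nucleolar protease, differed by 0.13 (limma adjusted p = 0.288) and Usp48 by -0.18 (limma adjusted p = 0.345). Of the 35 relatives of Ube2l6 0 were higher by more than its 0.13. Ube2a, picked after its value was seen, was lower by a similar size, at -0.14 (limma adjusted p = 0.522). Among the relatives that were higher, Cdc34, an E2 enzyme of the SCF ligases, was close, at 0.12 (limma adjusted p = 0.356). Birc6, a giant E2 hybrid that inhibits apoptosis, differed by -0.10 (limma adjusted p = 0.422). Ube2l3, the sister gene of Ube2l6 that serves ubiquitin, was picked after its value was seen and differed by 0.00089 (95% interval -0.08 to 0.08).

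The other 4 HERC ligases ranged from -0.13 to 0.04, below Herc6 at 0.18. Herc1 differed by -0.13 (limma adjusted p = 0.360) and Herc3 by 0.04 (limma adjusted p = 0.771). Of the E1 enzymes, 4 of 6 had a signed difference above that of Uba7, which was close to 0. Uba6, which activates ubiquitin and FAT10, differed by 0.09 (limma adjusted p = 0.501) and Mocs3, which activates URM1, by 0.10 (limma adjusted p = 0.558). Of the modifiers, Ufm1 differed by -0.07 (limma adjusted p = 0.519). Ubd, which encodes the interferon-inducible modifier FAT10, differed by 0.08 (limma adjusted p = 0.577).

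Among the TRIM ligases 23 of 58 had a signed difference above that of Trim25. The widest was in Trim12c, a TRIM5-related gene, which read 6.37, 6.60 and 6.38 with control siRNA and 7.02, 6.81 and 7.01 with H19 siRNA. Its groups were apart, with a difference of 0.50 (95% interval 0.30 to 0.70; limma adjusted p = 0.103). Trim30a, of the same gene cluster, differed by 0.29 (95% interval 0.15 to 0.42; limma adjusted p = 0.148). These genes have close copies, so cross-hybridisation between them was not tested.

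**Figure D4:**
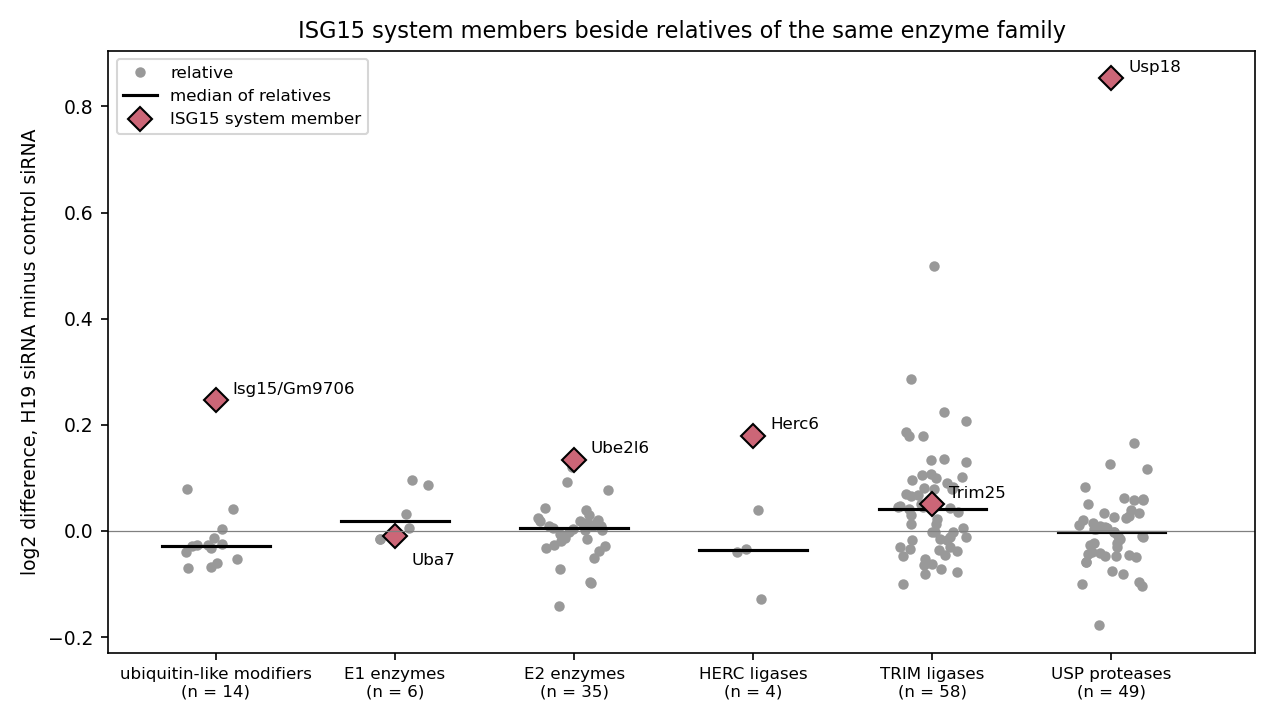
Difference in mean log2 value, H19 siRNA minus control siRNA, of each relative (grey points, spread sideways only for visibility) and of each member (red diamonds), by enzyme family, with a bar at the median of the relatives. Usp18, Ube2l6, Herc6 and Isg15/Gm9706 lie above every relative shown in their column, while Uba7 and Trim25 lie among theirs.

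Partners of the system gave 0 calls among 13 genes, with a median difference of 0.01. Unadjusted p-values were under 0.05 for 3 of them, against 10.9% of all units. Stat2 alone passed when trend and robust variance were both fitted, or when dim units under the median were left out. In those fits 435 of 21559 and 266 of 10779 units passed. Stat2, through which Usp18 reaches the receptor, read 9.93, 9.88 and 9.92 with control siRNA and 10.26, 10.14 and 10.10 with H19 siRNA. It differed by 0.25 (95% interval 0.14 to 0.37; limma adjusted p = 0.138), with the groups apart. Ifnar1, a chain of the type I interferon receptor, differed by -0.12 (95% interval -0.21 to -0.03; limma adjusted p = 0.310). Ifnar2, the chain that Usp18 binds, and Arih1, another ISG15 ligase, were picked after their values were seen. Ifnar2 differed by -0.04 (95% interval -0.13 to 0.05) and Arih1 by -0.01 (95% interval -0.11 to 0.08).

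In the route from interferon receptor to transcription 0 of 10 measured genes passed, and 5 had an unadjusted p under 0.05, 3 higher and 2 lower, against 10.9% of all units. With trend and robust variance together 4 passed, Jak1 (lower) and Stat2, Irf9 and Irf7 (higher), against 435 of all 21559 units. Irf9 also passed with array weights (70 units passed) and after a second quantile normalization (60). Irf9 and Irf7 passed without dim units under the 30th percentile (111 of 15091 units passed). They passed with Stat2 without units under the median (266 of 10779). In the remaining settings, among them the replicate block and each fit without 1 array, 0 passed. Irf9, which joins Stat2 in the factor that binds the response element, differed by 0.30 (95% interval 0.19 to 0.40; limma adjusted p = 0.0779). Irf7, an interferon-induced transcription factor, differed by 0.35 (95% interval 0.22 to 0.48; limma adjusted p = 0.0812). The interferon gene Ifnb1, named after its value was seen, averaged 5.21 ± 0.10 in control arrays and 5.29 ± 0.16 in H19 siRNA arrays (SD, n = 3 each; limma adjusted p = 0.784).

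Of 19 measured genes whose proteins are reported to receive ISG15, 3 rose and 0 fell in limma. Of all 21559 units 27 rose and 16 fell. At an unadjusted p under 0.05, 7 of the 19 were higher and 1 lower, against 10.9% of all units. With trend and robust variance together 7 passed, against 435 of all 21559 units. Among the 7 was Jak1, which was lower (-0.12; limma adjusted p = 0.355 without trend and robust variance). The 3 that rose, which earlier results of these data already showed, are themselves interferon-inducible. Ifit1, which binds foreign RNA caps, rose by 0.67 (SE 0.04; limma adjusted p = 0.00404) and its partner Ifit3 by 0.81 (SE 0.06; limma adjusted p = 0.0117). Bst2, or tetherin, which holds budding virions at the cell surface, rose by 0.39 (SE 0.04; limma adjusted p = 0.0245). Ddx58, the sensor RIG-I, differed by 0.26 (limma adjusted p = 0.0750, and past the threshold in 5 of the other settings) and Mx2, an antiviral GTPase, by 0.56 (limma adjusted p = 0.0996). The median of the 19 was 0.04. Over the 197 distinct related genes the 3 calls became 0 without control siRNA replicate 1 or H19 siRNA replicate 3, 1 (Ifit1) without control siRNA replicate 2 or H19 siRNA replicate 1, and 2 (Ifit1 and Ifit3) without control siRNA replicate 3.

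The genes most like Usp18 were found by the root mean square difference between 6-array profiles, each centred on its own mean. Over the 6 arrays the 8 nearest were Heyl (0.084 on the log2 scale), Ifit3 (0.113), Ifit1 (0.117), Oasl2 (0.144), Rtp4 (0.153), Lgals3bp (0.185), Rdh5 (0.190) and Mx2 (0.190). The measure favours genes with a difference of similar size. No other member was among these 8, and the Isg15/Gm9706 probe set was at 0.309. For that probe set the 8 nearest were Mycbpap (0.022), Kcnh1 (0.040), Tmem119 (0.043), Crispld2 (0.044), Gpr85 (0.044), BC023105 (0.046), Snord49a (0.047) and Igha (0.049). The nearest other member was Herc6, at 0.098.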

How the data were processed

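The authors deposited log2 values, 1 per probe set and array. Per the submitters' processing notes they come from RMA, run in Affymetrix Expression Console, which corrects background, normalises arrays by quantiles and summarises probes; version and annotation: not given in the sources used here. Detection calls were not used, and the number of arrays limits precision. GEO's platform annotation gave 21789 probe sets 1 symbol, 1621 several symbols and 12146 no listing, and 21698 identifiers matched RefSeq (GRCm38.p6). A gene was represented by its probe set with the highest mean, and probe sets with several symbols were kept, giving 21559 units. The groups were compared with lmFit and eBayes (limma 3.58.1, R 4.3.3), two-sided, over all 6 arrays, without covariate or filter, at a Benjamini-Hochberg adjusted p under 0.05. Intervals and SE are the moderated ones. The fit was tested on simulated data. The members and lists were chosen with earlier results of these data known. Named were all members, related genes past the threshold, the 2 others with the smallest p per list, the 8 nearest profiles and marker genes. Outside this rule, Ube2a, Ube2l3, Ifnar2, Arih1 and Ifnb1 were named after their values were seen. Trim55 and Jak1 were named because they passed with trend and robust variance. Alternatives changed the variance model, weights, filters, scaling, rows, probe set rule, replicate block and arrays.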

Additional observations from a re-analysis of the deposited data

How the results depend on the processing

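Usp18 was the 1 member past the threshold in the settings other than leaving out an array, and it differed by between 0.79 and 0.88 on the log2 scale over all 15 settings. It was chosen with its difference in these same arrays known, so these calls describe the fits and do not test Usp18. Without 1 array the count of members called ran from 0 to 1, and with Usp18, Uba7, Ube2l6, Herc6 and Trim25 alone, chosen after seeing the data, it was 1. The median difference of the members ran from 0.13 to 0.19 without 1 array. The filter at the median left out Herc6 and the Isg15/Gm9706 probe set, so it gave no such median. Against 43 units called and 3 related genes called, an intensity trend with robust variance gave 435 and 12, array weights 70 and 5, the filter at the 30th percentile 111 and 6, and the filter at the median 266 and 7. A second quantile normalization gave 5 related genes, and all rows gave 11 units and 1 related gene. The same-numbered arrays did not deviate together (correlations of -0.02, -0.13 and -0.14). Control array 2 with H19 siRNA array 3 gave 0.13, and control array 3 with H19 siRNA array 2 gave 0.12. Each deviation is from a mean of 3 arrays, which ties these correlations to one another. They cannot show whether same-numbered arrays shared a culture or batch. With the replicate number as a block 3 units, Usp18 among them, and 0 related genes were called. Without 1 array 1 to 21 units and 0 to 3 related genes were called. The cause of these changes was not tested.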
